A study of Homo sapiens with 9 samples.

Results

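Lysosomal genes were examined in Huh-7, a human hepatocellular carcinoma (HCC) cell line, and in 2 derivatives that lack a vault RNA, a short noncoding RNA made by RNA polymerase III. The members are 45 genes fixed by name: 3 transcription factors of the TFEB family, 8 cathepsins, 6 glycosidases, 4 proteins of lipid handling, 13 subunits of the vacuolar proton pump (V-ATPase), 9 proteins of the lysosomal membrane and 2 subunits of the enzyme that tags hydrolases with mannose 6-phosphate. All 45 were found by symbol and Ensembl identifier among the 60664 genes of the deposited count table, and all 45 passed the filter on low counts that left 17207 genes for testing. The lines were wild type (WT), vtRNA1-1 knockout (1-1 KO) and vtRNA1-2 knockout (1-2 KO), each with 3 mRNA libraries from untreated cells in complete medium with 10% serum, harvested at 80% confluency. Both knockouts were made with CRISPR/Cas9. WT and 1-1 KO cells came from another laboratory, and the 1-2 KO line was derived from the WT cells and grown from a single cell clone, so the loss of a vault RNA and the history of a line cannot be told apart here. The study calls the replicates biological, and how their cultures were kept apart is not given in the sources used here, so p-values measure the spread between these libraries, which may be partly technical.

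Lysosomes are acidic organelles in which hydrolases break down proteins, sugars and lipids delivered by endocytosis and autophagy. The V-ATPase pumps protons into them. Its V0 sector forms the proton path through the membrane and its V1 sector hydrolyses ATP on the cytosolic side. TFEB, TFE3 and MITF are related transcription factors that bind CACGTG motifs near the start sites of many lysosomal genes, and their activity is set largely by phosphorylation and by movement between cytoplasm and nucleus, which mRNA levels do not show. In liver cells the organelle also processes lipoprotein cholesterol. The question was whether the mRNAs of this machinery differ between cells that lack vtRNA1-1 and cells that lack vtRNA1-2.

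The promoter stretches around these motifs are shown first because DEGs are counted further on for members with and without them. RefSeq promoters (GRCh38.p14, 250 bases before to 50 after the start) were at hand for 35 of the 45 members. CACGTG, which reads the same on both strands, was found in 12 of these 35 (34.3%) and in 7.43% of all 27305 promoters in the table. A longer palindrome, CACGTG with GT before it and AC after it, was found in 4 of 35 (11.4%) and in 0.381% of all. Each line below gives 30 bases on the strand of the gene, 5′ to 3′, with CACGTG in capitals. The first 5 are the occurrences of the longer palindrome, and the others are from genes described further on. The promoters of MCOLN1, GNPTG, CTSA, CLCN7 and LAMP1 hold further CACGTG sites that are not printed.
GAA, chr17:80101493-80101522, plus strand: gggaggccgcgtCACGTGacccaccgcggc
GAA, chr17:80101538-80101567, plus strand: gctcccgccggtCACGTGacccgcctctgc
MCOLN1, chr19:7522598-7522627, plus strand: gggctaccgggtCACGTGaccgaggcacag
ATP6V1G1, chr9:114587699-114587728, plus strand: acgctgtgcggtCACGTGacaacgggggcg
GNPTG, chr16:1351907-1351936, plus strand: ggtccccgtggtCACGTGaccgtcacttca
NEU1, chr6:31862930-31862959, minus strand: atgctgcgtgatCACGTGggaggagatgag
CTSA, chr20:45891281-45891310, plus strand: gaggaagactgtCACGTGgcgccggagttc
CTSD, chr11:1763957-1763986, minus strand: gccggccgcgccCACGTGaccggtccgggt
CLCN7, chr16:1475038-1475067, minus strand: cccgtcgcgcgtCACGTGgccgccggcgcg
ATP6V0D1, chr16:67481199-67481228, minus strand: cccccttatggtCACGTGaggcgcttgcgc
LAMP1, chr13:113297199-113297228, plus strand: gacccgcgggatCACGTGacgcccgggcgc
A match is a description of the letters only, and no binding was measured.

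Library totals were between 32384469 and 41782387 counts. Levels are given as CPM, the share of a library's counts scaled to a common total, with TMM-scaled library sizes within a gene, and as TPM, the same per exon length, between genes. A DEG is a gene with an adjusted p under 0.05 in edgeR's quasi-likelihood test, and log2 fold changes carry standard errors (SE). The libraries are mRNA libraries and do not test the knockouts: VTRNA1-1 had 1 count in 1 WT library and VTRNA1-2 had 0 counts in all 9. Replicate 1 of 1-2 KO stood apart from the other two of its line: per degree of freedom, the chi-square of counts was 15.3 and 16.2 against them and 2.68 between those. Without it, 7 members rose and 27 fell in 1-2 KO compared to WT, beside 8 and 26 with it. The same chi-square was 5.05, 6.42 and 10.4 between WT libraries and 2.08 to 3.48 between those of 1-1 KO. Hepatocyte and hepatoma markers (8 genes) summed to 11011 to 11753 CPM in WT, 25550 to 26411 in 1-1 KO and 17908 to 19586 in 1-2 KO. Of markers of other cells, the 5 of macrophages and leukocytes, which are rich in lysosomes, summed to 115 CPM in each WT library, 102 to 108 in 1-1 KO and 21.6 to 22.4 in 1-2 KO, nearly all of it from the lysozyme gene LYZ. Without LYZ the order differed, with 1.48 to 1.59 CPM in WT, 3.53 to 3.76 in 1-1 KO and 2.70 to 3.11 in 1-2 KO, and MRC1 was at 3 counts or fewer in every library. The 5 fibroblast markers summed to 166 to 177 CPM in WT, 220 to 231 in 1-1 KO and 83.4 to 88.7 in 1-2 KO, mostly LUM, without which 1-2 KO was highest (14.5 to 16.0, 17.9 to 18.9 and 23.2 to 24.4 CPM in the same order). The 5 endothelial markers summed to 7.42 to 8.04 CPM in WT, 6.43 to 7.22 in 1-1 KO and 0.831 to 1.10 in 1-2 KO, nearly all from PECAM1, and KDR was at 0. All libraries came from cultures of Huh-7 lines, so these sums are levels of marker transcripts and not shares of other cell types. Bulk RNA does not show in which cells the transcripts were made. The part of these markers in the results below was not tested.

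Among the called members, more rose than fell in 1-1 KO, and more fell than rose in 1-2 KO. In 1-1 KO, 20 of the 45 members rose over WT and 13 fell below it, against a background of 32.5% upregulated and 30.9% downregulated among all 17207 tested genes. In 1-2 KO, 8 members rose over WT and 26 fell below it, against a background of 28.2% and 26.2%. As shares of the 45 members these counts were 44.4% up and 28.9% down in 1-1 KO, and 17.8% up and 57.8% down in 1-2 KO. The median log2 fold change of the members was 0.08 in 1-1 KO and -0.24 in 1-2 KO, beside 0.01 and 0.02 over all tested genes. Most differences were small. A fitted change of at least 1.5-fold was reached by 5 upregulated and 0 downregulated members in 1-1 KO (background 16.4% and 10.2%), and by 1 upregulated and 5 downregulated members in 1-2 KO (background 13.3% and 7.48%). The median size of change among the members, 0.26 in 1-1 KO and 0.31 in 1-2 KO on the log2 scale, stood beside 0.35 and 0.27 over all tested genes. Both comparisons share the WT libraries.

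**Figure D1:**
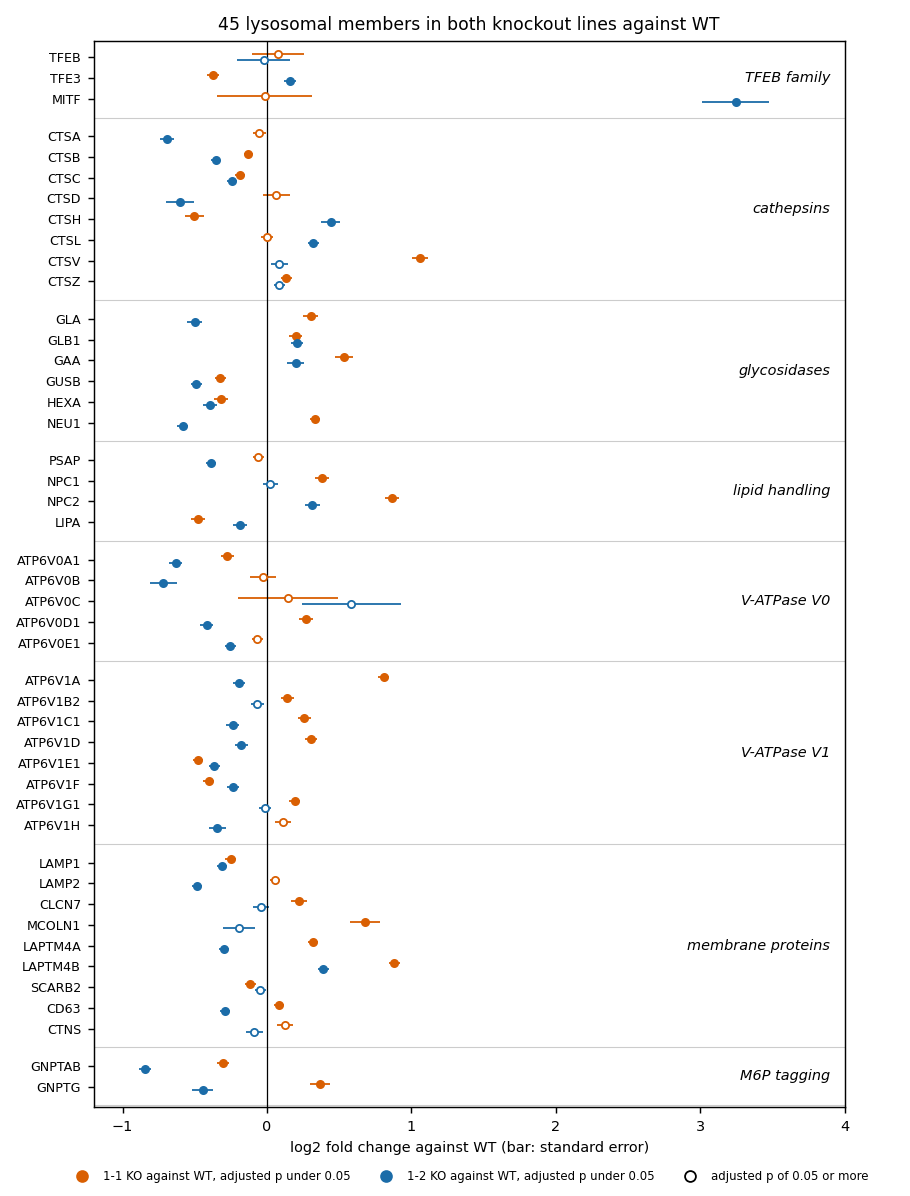
Log2 fold change (x axis, with standard error) of each of the 45 members against WT, grouped by class, for 1-1 KO (orange) and 1-2 KO (blue); filled points are DEGs. In 1-1 KO 20 points are DEGs to the right of 0 and 13 to the left, in 1-2 KO 8 and 26, and MITF in 1-2 KO lies farthest out at 3.25.

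Compared directly, 30 members were lower and 7 higher in 1-2 KO than in 1-1 KO, against a background of 32.2% lower and 33.1% higher, with a median log2 fold change of -0.33 beside 0.01 over all tested genes. At 1.5-fold or more, 11 were lower and 2 higher (background 14.5% and 14.6%). The 2 higher were MITF and CTSH. The 11 lower were CTSA, CTSD, CTSV, GLA, NEU1, ATP6V0B, ATP6V0D1, ATP6V1A, MCOLN1, LAPTM4A and GNPTG. Of the 45, 9 were upregulated in 1-1 KO and downregulated in 1-2 KO: GLA, NEU1, ATP6V0D1, ATP6V1A, ATP6V1C1, ATP6V1D, LAPTM4A, CD63 and GNPTG. The opposite pattern was seen for 2, TFE3 and CTSH. A further 10 were downregulated in both knockouts (CTSB, CTSC, GUSB, HEXA, LIPA, ATP6V0A1, ATP6V1E1, ATP6V1F, LAMP1 and GNPTAB). Another 4 were upregulated in both (GLB1, GAA, NPC2 and LAPTM4B). The share of all tested genes with each of these joint patterns was not computed. The counts are therefore not read as particular to lysosomal genes. Members without a call in either knockout were TFEB, ATP6V0C and the cystine exporter CTNS, which stood between 16.6 and 19.7 CPM in the 9 libraries. CTNS was called up in 1-1 KO with library-size scaling (0.18, adjusted p = 0.013), with 10 counts required in every library (0.15, adjusted p = 0.028) and without WT replicate 3 (0.15, adjusted p = 0.045), and down in 1-2 KO after the median change of its 50 neighbouring genes was subtracted (-0.19, adjusted p = 0.014). Summed over all members, the libraries held 6132 to 6303 CPM in WT, 6369 to 6493 in 1-1 KO and 5165 to 5327 in 1-2 KO. These ranges did not overlap, and the means of the knockouts differed from WT by 3.52% and -15.6%.

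**Figure D2:**
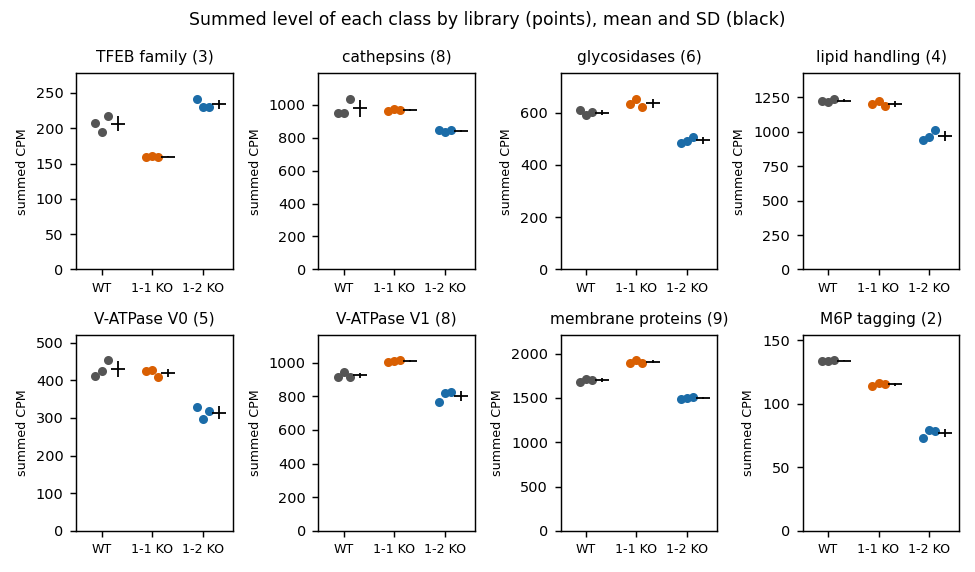
Summed CPM of the members of each class (y axis, from 0; number of genes in parentheses) in each library (points) with the mean and SD of 3 libraries (black). The 1-2 KO libraries lie below all WT libraries in every class but the TFEB family, where they lie above. Those of 1-1 KO lie above WT in glycosidases, V1 subunits and membrane proteins. They lie below it in the TFEB family and mannose 6-phosphate tagging. ATP6V1A alone rose by more CPM in 1-1 KO than the V1 sum did.

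Among the transcription factors, TFE3 was the abundant mRNA of the family in these cells. Per length, TFE3 stood at 184 TPM in WT, TFEB at 0.844 and MITF at 0.220, so that TFE3 ranked 8 among the 45 members and the others 44 and 45. TFE3 (ENSG00000068323, chrX:49028726-49043410, minus strand) measured 205, 193 and 215 CPM in WT, 158, 158 and 157 in 1-1 KO, and 236, 224 and 225 in 1-2 KO. The 3 groups did not overlap, with 1-1 KO lowest and 1-2 KO highest. The log2 fold change was -0.38 ± 0.04 (SE, n = 3 per line) in 1-1 KO and 0.16 ± 0.04 in 1-2 KO, with adjusted p of 1.8e-06 and 0.0043 in edgeR's test. The genes around TFE3 leaned the same way. After the median change of its 50 neighbouring genes was subtracted, TFE3 was no longer called in 1-2 KO (0.04, adjusted p = 0.43).

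MITF (ENSG00000187098, chr3:69739456-69968336, plus strand), best known from melanocytes, was upregulated in 1-2 KO from a very low level. It measured 0.653, 0.267 and 0.380 CPM in WT, from 26, 10 and 12 counts, and 0.307, 0.535 and 0.466 CPM in 1-1 KO. The 1-2 KO libraries held 3.73, 4.80 and 4.09 CPM, from 157, 191 and 164 counts. All 3 were above every other library, and the log2 fold change of 3.25 ± 0.23 (SE, n = 3 per line; adjusted p = 3.4e-08, edgeR) was the largest among the members. Even so, MITF reached only 2.26 TPM in 1-2 KO, where TFE3 stood at 217. In 1-1 KO the WT and knockout libraries of MITF overlapped, and the 95% interval of the log2 difference ran from -0.66 to 0.63.

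TFEB (ENSG00000112561, chr6:41683978-41736259, minus strand) measured 1.53, 1.41 and 1.55 CPM in WT, 1.39, 1.39 and 1.96 in 1-1 KO, and 1.61, 1.63 and 1.17 in 1-2 KO. The libraries overlapped in each comparison, and each value rested on 47 to 80 counts. The 95% interval of the log2 difference from WT was -0.28 to 0.43 in 1-1 KO and -0.38 to 0.33 in 1-2 KO, so a change of the size seen for TFE3 in 1-2 KO could not have been detected.

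**Figure D3:**
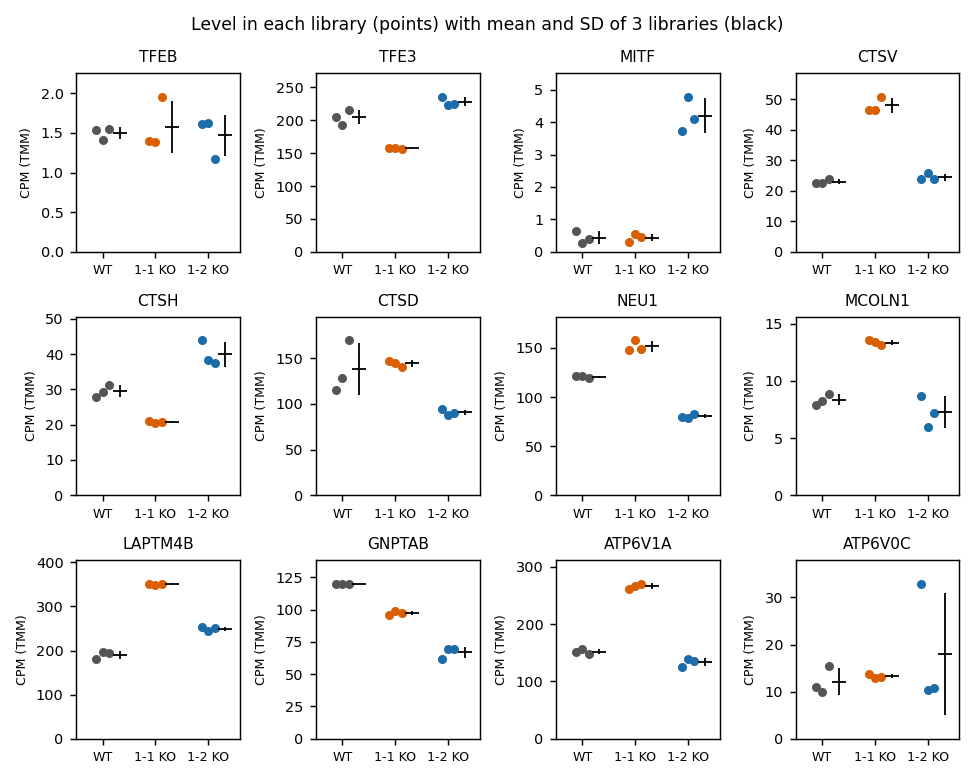
CPM with TMM-scaled library sizes (y axis, each from 0) of 12 members in each of the 9 libraries (points), with the mean and SD of 3 libraries per line in black. TFE3 and CTSH are lowest in 1-1 KO and highest in 1-2 KO, NEU1 and ATP6V1A are highest in 1-1 KO and lowest in 1-2 KO, and replicate 1 of 1-2 KO holds 32.9 CPM of ATP6V0C against 10.3 and 10.7 in the other two.

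The cathepsins are proteases of the lysosome. Of the 8, 2 rose and 3 fell in 1-1 KO, beside 32.5% and 30.9% of all tested genes. In 1-2 KO 2 rose and 4 fell, beside 28.2% and 26.2% of all tested genes. CTSV, a close relative of cathepsin L, showed the largest change. It measured 22.6, 22.4 and 24.0 CPM in WT, 46.5, 46.5 and 50.9 in 1-1 KO, and 23.7, 25.7 and 23.7 in 1-2 KO. Its level in 1-1 KO was thus 2.09-fold that of WT (log2 1.06 ± 0.06, SE; adjusted p = 9.0e-10, edgeR, n = 3 per line), while 1-2 KO overlapped WT. CTSL itself was upregulated in 1-2 KO alone, from 69.9 ± 0.451 to 87.4 ± 1.29 CPM (SD, n = 3).

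CTSH, an aminopeptidase, moved in opposite directions in the knockouts. It measured 27.8, 29.2 and 31.3 CPM in WT, 20.9, 20.4 and 20.9 in 1-1 KO, and 43.97, 38.2 and 37.6 in 1-2 KO. The groups did not overlap in any of the comparisons, and 1-2 KO was 1.93-fold above 1-1 KO (log2 0.94 ± 0.07, adjusted p = 1.2e-08, edgeR). The rise over WT in 1-2 KO, 0.44 ± 0.06, fell to 0.13 and was not called (adjusted p = 0.094) once the change of 50 neighbouring genes was subtracted.

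Most other cathepsins were lower in 1-2 KO. CTSA, a carboxypeptidase that holds the sialidase NEU1 and the galactosidase GLB1 in a complex, measured 112, 108 and 123 CPM in WT, 111, 114 and 105 in 1-1 KO, and 70.8, 69.7 and 71.2 in 1-2 KO. The fall in 1-2 KO was 1.62-fold (log2 -0.69 ± 0.05, adjusted p = 1.8e-08, edgeR), with 1-1 KO overlapping WT. CTSD, the main aspartic protease, measured 115, 129 and 170 CPM in WT, 147, 145 and 140 in 1-1 KO, and 93.9, 87.9 and 90.3 in 1-2 KO. WT spread widely here, but every 1-2 KO library was below every WT library (log2 -0.60 ± 0.10, adjusted p = 0.00012, edgeR). In 1-1 KO CTSD was not called with all libraries (0.07 ± 0.10, adjusted p = 0.57). It was called at 0.24 without WT replicate 3 (adjusted p = 0.00080) and at 0.31 after subtraction of its neighbours (adjusted p = 0.014), and it was -0.05 without WT replicate 1. CTSB and CTSC were downregulated in both knockouts, with the call on CTSB in 1-1 KO lost after subtraction of its neighbours (-0.06, adjusted p = 0.13). CTSZ was called in 1-1 KO alone (0.13 ± 0.04, adjusted p = 0.010), and not without WT replicate 2 (0.09, adjusted p = 0.058) or after subtraction of its neighbours.

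All 6 glycosidases, which trim sugar chains, were DEGs in both knockouts, with 4 up and 2 down in 1-1 KO and 2 up and 4 down in 1-2 KO, where 63.4% and 54.4% of all tested genes were DEGs in either direction. NEU1 (ENSG00000204386, chr6:31857659-31862905, minus strand), the sialidase that removes terminal sialic acid, separated the 3 lines completely. It measured 121, 121 and 119 CPM in WT, 148, 158 and 149 in 1-1 KO, and 79.4, 79.0 and 82.9 in 1-2 KO. The log2 fold change was 0.33 ± 0.04 in 1-1 KO (adjusted p = 1.8e-06, edgeR) and -0.58 ± 0.04 in 1-2 KO (adjusted p = 8.7e-09), and between the knockouts it was -0.92 ± 0.04 (adjusted p = 4.2e-11). GLA, alpha-galactosidase A, followed the same order at 73.6 ± 2.37 CPM in WT, 90.7 ± 2.21 in 1-1 KO and 52.0 ± 4.01 in 1-2 KO (SD, n = 3), and its call in 1-1 KO was lost after subtraction of its neighbours (0.10, adjusted p = 0.090).

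GAA, the acid alpha-glucosidase that degrades glycogen, had the largest rise of the class in 1-1 KO. It measured 48.0, 46.0 and 51.5 CPM in WT, 71.2, 74.3 and 65.0 in 1-1 KO, and 59.9, 52.9 and 54.0 in 1-2 KO. Both knockouts lay above WT, by 0.53 ± 0.06 (adjusted p = 2.9e-06, edgeR) and 0.20 ± 0.06 (adjusted p = 0.013). The genes around GAA rose as well, with medians of 0.40 and 0.25 over 50 neighbours, and after their subtraction GAA was not called in 1-1 KO (0.13, adjusted p = 0.084) and turned to -0.05 in 1-2 KO. The call in 1-2 KO was also lost without WT replicate 2 (0.16, adjusted p = 0.068) and without 1-2 KO replicate 1 (0.14, adjusted p = 0.055). GLB1, the beta-galactosidase, was upregulated to a like degree in both, at 0.20 ± 0.04 and 0.21 ± 0.04, from 106 ± 2.13 CPM in WT to 121 ± 4.36 and 122 ± 7.28 (SD, n = 3).

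The beta-glucuronidase GUSB and the hexosaminidase subunit HEXA were downregulated in both knockouts. GUSB measured 154, 148 and 161 CPM in WT, 121, 125 and 124 in 1-1 KO, and 113, 109 and 107 in 1-2 KO. Its log2 fold changes were -0.32 ± 0.04 (adjusted p = 3.4e-06, edgeR) and -0.49 ± 0.04 (adjusted p = 6.5e-08). GUSB has 19 annotated pseudogenes, to which 485 counts per library were assigned beside 5048 for GUSB itself, and how reads shared among them were counted is not given in the sources used here. In 1-1 KO, GUSB was not called after subtraction of its neighbours (-0.02), and HEXA reversed to 0.13.

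Lipid handling showed the largest single mRNA of the set. PSAP, the precursor of the saposins that present lipids to hydrolases, stood highest per length in each line, at 1325 TPM in WT, 1324 in 1-1 KO and 1070 in 1-2 KO. In CPM it measured 1093, 1078 and 1105 in WT, 1049, 1068 and 1027 in 1-1 KO, and 809, 827 and 869 in 1-2 KO. It was downregulated in 1-2 KO (-0.39 ± 0.04, adjusted p = 4.9e-07, edgeR) and not called in 1-1 KO (adjusted p = 0.16). The cholesterol-binding protein NPC2 went the other way, with 24.4, 27.1 and 25.5 CPM in WT, 45.5, 47.2 and 47.7 in 1-1 KO, and 32.8, 31.0 and 32.04 in 1-2 KO. Every knockout library lay above every WT library, at 1.82-fold in 1-1 KO (log2 0.87 ± 0.05, adjusted p = 2.5e-09, edgeR) and 1.24-fold in 1-2 KO (0.31 ± 0.05, adjusted p = 0.00010). NPC1, the membrane protein that takes cholesterol from NPC2, was upregulated in 1-1 KO (0.38 ± 0.05, adjusted p = 9.5e-06), with 0.08 left after subtraction of its neighbours (adjusted p = 0.19). LIPA, the acid lipase that frees cholesterol from its esters, was downregulated in both, most in 1-1 KO, where it measured 37.6, 39.3 and 39.6 CPM against 53.1, 57.2 and 52.1 in WT (-0.48 ± 0.05, adjusted p = 6.7e-07, edgeR).

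In 1-2 KO compared to WT, 10 of the 13 V-ATPase subunits were downregulated and 0 upregulated, where 26.2% of all tested genes were downregulated. In 1-1 KO compared to WT, 6 rose and 3 fell, where 32.5% of all tested genes rose and 30.9% fell. The summed CPM of the 13 subunits was 1329 to 1367 in WT, 1424 to 1436 in 1-1 KO and 1096 to 1142 in 1-2 KO. The mean sum was 1354 in WT and 1431 in 1-1 KO, while ATP6V1A alone went from 152 to 266. Its rise was larger than that of the sum, so the means of the other subunits together were lower in 1-1 KO. The subunits did not stand at equal TPM. In WT their TPM ran from 14.9 for ATP6V1H to 431 for ATP6V1F, a 28.9-fold range, with the same lowest and highest subunit in each line. This order depends on the length used, which takes in all annotated exons, also those the cells may not use. Without division by length, ATP6V0C was lowest in WT (12.1 CPM) and ATP6V1E1 highest (254 CPM).

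ATP6V1A (ENSG00000114573, chr3:113746770-113812056, plus strand), the catalytic subunit that hydrolyses ATP, had the largest rise. It measured 152, 157 and 148 CPM in WT, 261, 267 and 271 in 1-1 KO, and 125, 139 and 136 in 1-2 KO. The groups did not overlap. The log2 fold change was 0.81 ± 0.04 in 1-1 KO (1.75-fold, adjusted p = 8.0e-10, edgeR), -0.19 ± 0.04 in 1-2 KO (adjusted p = 0.0013) and -0.998 ± 0.041 between the knockouts (adjusted p = 6.4e-11). Its partner in the catalytic ring, ATP6V1B2, differed far less, at 140 ± 8.12 CPM in WT, 154 ± 4.55 in 1-1 KO and 134 ± 4.91 in 1-2 KO (SD, n = 3). It was called in 1-1 KO (0.14 ± 0.05, adjusted p = 0.015), but not without WT replicate 1 (0.09, adjusted p = 0.086), 1-1 KO replicate 1 (0.13, adjusted p = 0.052) or 1-1 KO replicate 2 (0.12, adjusted p = 0.056).

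The remaining V1 subunits split by knockout. ATP6V1C1, ATP6V1D and ATP6V1G1, parts of the stalks, were upregulated in 1-1 KO by 0.26 ± 0.04, 0.30 ± 0.04 and 0.19 ± 0.04. None of these 3 was called after subtraction of its neighbours, and the value of ATP6V1C1 turned to -0.07 and that of ATP6V1G1 to -0.01. ATP6V1E1 of the peripheral stalk and ATP6V1F of the rotor were downregulated in both lines. ATP6V1E1 measured 253, 259 and 250 CPM in WT, 182, 178 and 188 in 1-1 KO, and 191, 199 and 203 in 1-2 KO. Its log2 fold changes were -0.48 ± 0.04 (adjusted p = 4.8e-08, edgeR) and -0.36 ± 0.04 (adjusted p = 1.0e-06). In 1-1 KO the genes around it fell as far, with a median of -0.45, and -0.03 remained, whereas in 1-2 KO they rose by a median of 0.17. ATP6V1F likewise lost its call in 1-1 KO after subtraction (-0.05, adjusted p = 0.26). ATP6V1E1 and ATP6V1F were also the V-ATPase subunits called higher in 1-2 KO than in 1-1 KO, by 0.11 ± 0.04 (adjusted p = 0.014) and 0.17 ± 0.04 (adjusted p = 0.0020). Relative to their neighbours both were lower, at -0.50 and -0.26, and the call on ATP6V1E1 was lost without 1-1 KO replicate 1 (0.11, adjusted p = 0.053), 1-1 KO replicate 2 (0.09, adjusted p = 0.072) or 1-2 KO replicate 3 (0.09, adjusted p = 0.058). ATP6V1H, which regulates the pump, was downregulated in 1-2 KO alone, from 20.1 ± 0.777 to 15.8 ± 0.507 CPM (SD, n = 3).

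In the V0 sector 4 of 5 subunits were downregulated in 1-2 KO, beside 26.2% of all tested genes. ATP6V0B, a proton-carrying ring subunit, measured 104.3, 125 and 149 CPM in WT, 127, 123 and 122 in 1-1 KO, and 81.5, 71.3 and 77.4 in 1-2 KO. All 1-2 KO libraries lay below all others, and the fall from WT was 1.64-fold (log2 -0.72 ± 0.09, adjusted p = 1.5e-05, edgeR). ATP6V0A1, the large subunit of the proton path, was downregulated in both knockouts, by -0.27 ± 0.04 and -0.63 ± 0.04, with 99.1, 91.9 and 91.8 CPM in WT, 77.7, 81.2 and 75.0 in 1-1 KO, and 59.2, 59.9 and 63.3 in 1-2 KO. ATP6V0D1, which couples the sectors, was higher in 1-1 KO and lower in 1-2 KO than in WT, at 67.7 ± 2.92, 81.6 ± 2.00 and 50.7 ± 2.65 CPM (SD, n = 3, in the order WT, 1-1 KO, 1-2 KO).

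ATP6V0C, the main ring subunit, was not called with all libraries and the filter on low counts, and its libraries disagreed. It measured 10.9, 10.0 and 15.4 CPM in WT, 13.8, 13.0 and 13.2 in 1-1 KO, and 32.9, 10.3 and 10.7 in 1-2 KO. The high value belonged to replicate 1, the library that stood apart from its line. With it the log2 fold change in 1-2 KO was 0.58 ± 0.34 (adjusted p = 0.16), and without it -0.19 (adjusted p = 0.25). Leaving out replicate 2 or 3 instead gave 0.86 and 0.85, both called (adjusted p = 0.040 and 0.042). Against 1-1 KO, the value without replicate 1 was -0.34 and was called (adjusted p = 0.034). With all libraries and no filter on low counts, edgeR called ATP6V0C up at 0.57 over WT (adjusted p = 5.7e-12) and at 0.44 over 1-1 KO (adjusted p = 7.9e-08).

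**Figure D4:**
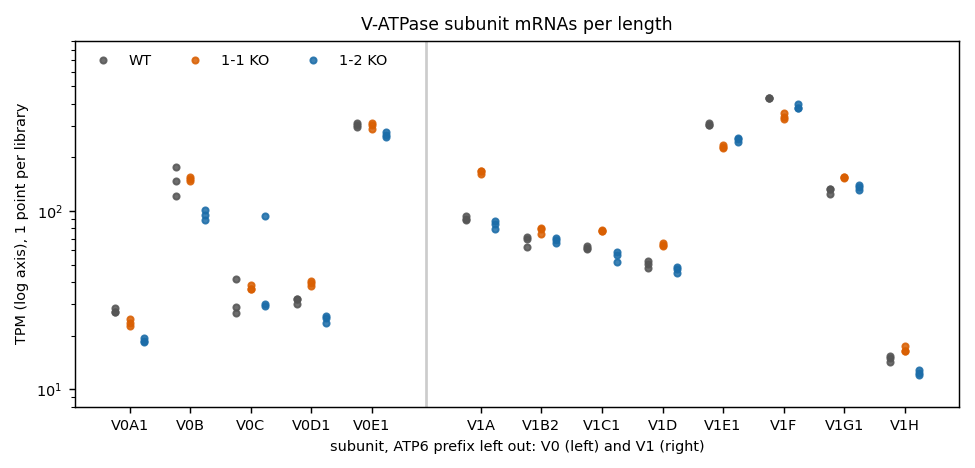
TPM (log axis) of the 13 V-ATPase subunits in each library, V0 on the left and V1 on the right, by line. ATP6V1H is lowest and ATP6V1F highest in each line, the 1-1 KO points of ATP6V1A lie above all others, and 1 of the 3 ATP6V0C points of 1-2 KO lies far above the rest.

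Of the 9 membrane proteins, 5 rose and 2 fell in 1-1 KO, against 1 and 4 in 1-2 KO. Over all tested genes 32.5% rose and 30.9% fell in 1-1 KO, and 28.2% and 26.2% in 1-2 KO. LAPTM4B, a membrane protein of late endosomes often raised in liver cancer, had the largest rise in both. It measured 180, 197 and 195 CPM in WT, 352, 348 and 352 in 1-1 KO, and 254, 245 and 250 in 1-2 KO. The groups did not overlap, with log2 fold changes of 0.88 ± 0.04 (1.84-fold, adjusted p = 1.7e-10, edgeR) and 0.39 ± 0.04 (1.31-fold, adjusted p = 9.6e-07). Its relative LAPTM4A was instead upregulated in 1-1 KO (0.32 ± 0.03, adjusted p = 1.3e-06) and downregulated in 1-2 KO (-0.30 ± 0.03, adjusted p = 3.6e-06), from a higher level of 599 TPM in WT against 225 for LAPTM4B.

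MCOLN1 (ENSG00000090674, chr19:7522624-7534009, plus strand), a cation channel that releases calcium from lysosomes, measured 7.92, 8.27 and 8.84 CPM in WT, 13.6, 13.4 and 13.1 in 1-1 KO, and 8.66, 5.93 and 7.21 in 1-2 KO. All 1-1 KO libraries lay above the others, at 1.60-fold over WT (log2 0.68 ± 0.11, adjusted p = 6.2e-05, edgeR), while 1-2 KO overlapped WT. The 50 genes around MCOLN1 had a median of 0.56 in 1-1 KO, the highest among the members, and 0.12 was left after its subtraction (adjusted p = 0.34). PNPLA6, on the same strand, overlaps MCOLN1 and held 1333 counts per library beside 384. CLCN7, a chloride and proton exchanger, measured 36.7, 34.7 and 34.9 CPM in WT, 40.2, 43.3 and 40.4 in 1-1 KO, and 37.0, 33.3 and 33.1 in 1-2 KO. It was upregulated in 1-1 KO (0.22 ± 0.05, adjusted p = 0.0024, edgeR; 0.09 after subtraction of its neighbours, adjusted p = 0.16) and overlapped WT in 1-2 KO (-0.04 ± 0.05, adjusted p = 0.55), where after subtraction it was called at -0.42 (adjusted p = 1.5e-05).

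The glycoproteins LAMP1 and LAMP2, which line the inner face of the lysosomal membrane, were both lower in 1-2 KO. LAMP1 measured 238, 240 and 255 CPM in WT, 205, 202 and 208 in 1-1 KO, and 197, 200 and 193 in 1-2 KO. Both knockouts were below WT, by -0.25 ± 0.04 (adjusted p = 2.5e-05, edgeR) and -0.31 ± 0.04 (adjusted p = 4.3e-06). In 1-1 KO its neighbours fell further, with a median of -0.34, so that LAMP1 came to 0.09 after their subtraction. LAMP2 measured 296, 307 and 295 CPM in WT, 311, 314 and 307 in 1-1 KO, and 205, 218 and 217 in 1-2 KO, and was downregulated in 1-2 KO alone (-0.49 ± 0.04, adjusted p = 4.1e-08, edgeR). The tetraspanin CD63 was called up in 1-1 KO by a small margin (0.08 ± 0.03, adjusted p = 0.046), which was lost in 6 of the 9 fits that left out a library and in DESeq2's test (adjusted p = 0.081), and was downregulated in 1-2 KO (-0.29 ± 0.03, adjusted p = 5.4e-06). SCARB2, the carrier of glucocerebrosidase, was called down in 1-1 KO (-0.12 ± 0.04, adjusted p = 0.016), a call lost without WT replicate 2 (-0.09, adjusted p = 0.069) or 1-1 KO replicate 1 (-0.11, adjusted p = 0.064).

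GNPTAB and GNPTG encode subunits of the phosphotransferase that marks new hydrolases for the lysosome, and in 1-2 KO both were downregulated. GNPTAB (ENSG00000111670, chr12:101745499-101830959, minus strand), the catalytic precursor, measured 120, 120 and 120 CPM in WT, 95.6, 98.8 and 97.3 in 1-1 KO, and 61.6, 69.2 and 69.4 in 1-2 KO. The 3 lines did not overlap, and the fall of 1.80-fold in 1-2 KO (log2 -0.85 ± 0.04, adjusted p = 1.0e-09, edgeR) was the largest among the members. In 1-1 KO it was -0.30 ± 0.04 (adjusted p = 2.5e-05). GNPTG, the gamma subunit, differed in direction, with 13.8, 14.2 and 14.5 CPM in WT, 18.2, 17.7 and 18.7 in 1-1 KO, and 11.5, 10.1 and 9.56 in 1-2 KO. It was upregulated in 1-1 KO (0.37 ± 0.07, adjusted p = 0.00036, edgeR) and downregulated in 1-2 KO (-0.44 ± 0.07, adjusted p = 0.00012). UNKL overlaps GNPTG on the opposite strand with 849 counts per library beside 563. ATP6V1D and CTNS are also overlapped on the opposite strand by genes with more counts than their own. The highest held 2340 beside 2322 for ATP6V1D and 2313 beside 707 for CTNS. Whether the counting used strand is not given in the sources used here.

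Members were also counted by the CACGTG letters in their promoters. Among the 12 with them, 8 rose and 1 fell in 1-1 KO compared to WT, with a median log2 fold change of 0.21, and 1 rose and 8 fell in 1-2 KO, with a median of -0.37. Compared directly, 11 of the 12 were lower in 1-2 KO than in 1-1 KO and 0 higher, with a median of -0.65, and the exception, LAMP1, was not called. The other 23 with a promoter entry gave 8 up and 10 down in 1-1 KO, 6 up and 10 down in 1-2 KO, and 7 higher and 10 lower in 1-2 KO than in 1-1 KO, with medians of -0.0013, -0.05 and -0.05. The 10 members with no promoter entry, whose letters are not known here, leaned as the 12 did: 4 up and 2 down in 1-1 KO, 1 and 8 in 1-2 KO, and 0 higher and 9 lower between the knockouts, with a median of -0.39. Over all tested genes with a promoter entry, 1165 held CACGTG and 10703 did not. Between the knockouts 35.3% of the former were higher and 36.1% lower in 1-2 KO, beside 35.8% and 34.5% of the latter. In 1-1 KO compared to WT 31.9% were up and 36.7% down with CACGTG, which is not the lean of the members, beside 34.3% and 33.9% without it. In 1-2 KO the shares were 26.5% up and 33.1% down with it and 30.6% and 29.0% without. With the longer palindrome, which 89 tested genes hold, 20.2% were higher and 47.2% lower in 1-2 KO than in 1-1 KO, beside 35.8% and 34.5% of the 11779 without it. Leaving out the 4 members, the 85 others gave 21.2% and 44.7%. Compared to WT, these 85 were 32.9% up and 29.4% down in 1-1 KO, beside 34.1% and 34.2% without the palindrome. In 1-2 KO they were 22.4% up and 37.6% down, beside 30.2% and 29.4%. The number of members is small, they were not drawn at random, and no test was made of these shares.

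Members were also read beside their neighbours in the genome. Of the 45 members, 32 had the same sign of change as the median of their 50 neighbours in 1-1 KO and 22 in 1-2 KO. In 1-1 KO 32 members lay above their neighbours and 13 below, whereas in 1-2 KO 10 lay above and 35 below. These counts were not made over all tested genes, so they are not read as particular to the members. After subtraction, 18 members rose and 7 fell in 1-1 KO compared to WT, and 5 rose and 33 fell in 1-2 KO. Before subtraction, DEGs in either direction made up 63.4% of all tested genes in 1-1 KO and 54.4% in 1-2 KO, both compared to WT. Between the knockouts they made up 65.3%. The matching shares after subtraction were not computed. Of the called members, 17 of 33 kept their direction and call in 1-1 KO, 31 of 34 in 1-2 KO and 34 of 37 between the knockouts. DNA copies were not measured, so the part of the genome's dosage in these values was not tested.

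**Figure D5:**
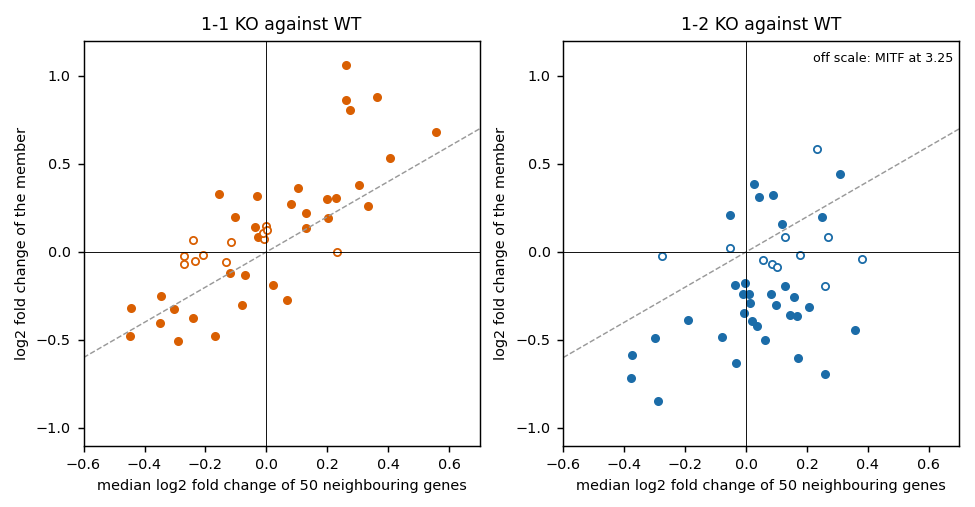
Log2 fold change of each member against WT (y axis) and the median of the same value over 50 neighbouring tested genes (x axis), for 1-1 KO and 1-2 KO, with DEGs filled and a dashed line of equal change. In 1-1 KO 32 of 45 points lie above the dashed line, and in 1-2 KO 35 of 45 lie below it, with MITF outside the axis range.

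Lists of further lysosomal genes outside the members were read beside them. Of 88 tested genes, 36 rose and 28 fell in 1-1 KO (40.9% and 31.8%, beside the background of 32.5% and 30.9%). In 1-2 KO 22 rose and 26 fell (25.0% and 29.5%, beside the background of 28.2% and 26.2%). Between the knockouts 25 were higher and 42 lower in 1-2 KO (28.4% and 47.7%, beside 33.1% and 32.2%). Among 35 other hydrolases and cofactors, 18 rose and 9 fell in 1-1 KO, with the acid nuclease DNASE2 changing most (0.85 ± 0.08, 12.6 to 22.7 CPM), and 9 and 10 in 1-2 KO, with the dipeptidase DPP7 changing most (1.03 ± 0.14, 4.62 to 9.39 CPM). Among 8 sorting genes, 5 rose and 1 fell in 1-1 KO, and 1 and 4 in 1-2 KO. The mannose 6-phosphate receptor IGF2R was the largest in 1-1 KO (0.49 ± 0.04, 324 to 454 CPM), and the sorting receptor SORT1 in 1-2 KO (-0.51 ± 0.04, 138 to 96.6 CPM).

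Alternative and accessory V-ATPase subunits were counted apart. Of 9 tested, 4 rose and 0 fell in 1-2 KO, and 1 and 3 in 1-1 KO. The background was 28.2% up and 26.2% down in 1-2 KO, and 32.5% and 30.9% in 1-1 KO. ATP6V0E2, a close relative of the member ATP6V0E1, rose from 8.64 to 28.6 CPM in 1-2 KO (1.73 ± 0.06, adjusted p = 9.8e-12, edgeR), while ATP6V0E1 fell from 129 ± 3.03 to 108 ± 4.69 CPM (SD, n = 3). ATP6AP1L changed most in 1-1 KO (-0.92 ± 0.17, adjusted p = 0.00022). ATP6V0D2 was too low to test, at 0.265 CPM in WT, 0.177 in 1-1 KO and 0.0994 in 1-2 KO. Among 16 other membrane proteins, 5 rose and 7 fell in 1-1 KO, and 6 and 6 in 1-2 KO. LAMP3, a relative of LAMP1 with a narrow range of tissues, rose from 0.168 CPM to 0.933 (2.47 ± 0.32, adjusted p = 9.6e-06) and 1.19 (2.82 ± 0.30, adjusted p = 2.4e-06).

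Among 20 genes that control TFEB at the lysosome, 7 rose and 8 fell in 1-1 KO, beside the background of 32.5% and 30.9%. In 1-2 KO 2 of the 20 rose and 6 fell, beside the background of 28.2% and 26.2%. The largest change in 1-1 KO was that of TFEC, the fourth relative of TFEB, TFE3 and MITF, from 0.184 to 2.42 CPM (3.76 ± 0.27, adjusted p = 2.6e-08, edgeR). In 1-2 KO, at 0.337 CPM, its difference from WT was 0.93 ± 0.38 and was not called (adjusted p = 0.055). Among the called genes the largest change in 1-2 KO was that of LAMTOR5, a part of the Ragulator complex that anchors mTORC1 at the lysosome, from 67.4 to 40.7 CPM (-0.73 ± 0.04, adjusted p = 5.0e-09, edgeR).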

How the data were processed

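Stranded mRNA libraries of the 3 Huh-7 lines, 3 per line, were analysed. The authors aligned reads to hg38 (version 104) with STAR and summarised them with featureCounts, so that the deposited table holds raw counts per gene. The use of strand and the handling of reads that match several places are not given in the sources used here. Symbols, positions and exon lengths came from GENCODE 44 (GRCh38). The 201 identifiers it lacks held 0.0192% of counts. TPM was computed from counts and the length of all annotated exons of a gene, with overlaps counted once.

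All 9 libraries entered 1 edgeR fit (filterByExpr, minimum count 10 and total 15, TMM, 1 term per line), and p-values were adjusted by Benjamini-Hochberg over 17207 genes. The second call rule added a fitted fold of at least 1.5. Totals of 32384469 to 41782387 counts and a biological coefficient of variation of 5.55% set the precision. Intervals are the estimate with its SE at a 95% level of the normal distribution. They are somewhat narrower than the edgeR test implies. For CTSZ in 1-2 KO the interval ran from 0.0060 to 0.17, with an unadjusted p of 0.054 in edgeR's test. Alternatives were DESeq2 on all libraries or on the 2 groups compared, DESeq2's size factors, library size alone, no filter, at least 10 counts in every library, edgeR on 2 groups, a replicate block, an adjusted p under 0.01, each library left out, and subtraction of the median log2 fold change of 50 neighbouring genes. The steps were tested on simulated data.

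Members and lists were chosen with earlier results of these data known. Values were given for the TFEB family, for TFEB, CTSD, LAMP1 and CLCN7, for the largest rise and fall per class and comparison, and for 1 gene per further list and knockout. The other members named with values were chosen after their values were seen. The table of promoters held no entry for 10 members.

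Versions were edgeR 4.0.16, limma 3.58.1 and DESeq2 1.42.0 (R 4.3.3), and matplotlib 3.10.9, numpy 2.4.6 and pandas 2.3.3 (Python 3.11.15).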

Additional observations from a re-analysis of the deposited data

How the results depend on the processing

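Outside the subtraction of neighbouring genes, 29 of 33 members called in 1-1 KO, 33 of 34 called in 1-2 KO and 36 of 37 called between the knockouts kept their call and direction in each alternative. The exceptions were ATP6V1B2, CD63, CTSZ and SCARB2 in 1-1 KO, GAA in 1-2 KO and ATP6V1E1 between the knockouts. Replicate numbers did not pair the libraries (correlations of deviations from -0.19 to 0.05), and a replicate block gave 19 up and 13 down in 1-1 KO, 8 and 26 in 1-2 KO and 7 and 30 between the knockouts.

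With the neighbours' median subtracted, members up and down numbered 18 and 7 in 1-1 KO, with 2 in place of 5 at 1.5-fold or more, 5 and 33 in 1-2 KO, and 1 in place of 2 was higher by 1.5-fold or more in 1-2 KO than in 1-1 KO. This setting reversed ATP6V1C1 (-0.074), ATP6V1G1 (-0.0093), HEXA (0.13), LAMP1 (0.092), SCARB2 (0.0034) and the uncalled MITF (0.19) in 1-1 KO, GAA (-0.051) and the uncalled TFEB (0.25) in 1-2 KO, and between the knockouts ATP6V1E1 (-0.50), ATP6V1F (-0.26) and the uncalled TFEB (0.17). The cause was not tested. Scaling by library size alone left 3 in place of 5 members lower by 1.5-fold or more in 1-2 KO, and reversed uncalled values of MITF in 1-1 KO (0.034) and of TFEB (0.033) and CLCN7 (0.016) in 1-2 KO. Keeping genes only with 10 counts or more in each library gave 0.0054 for MITF in 1-1 KO.

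With each library left out, members up numbered 18 to 22 and down 12 to 13 in 1-1 KO and 7 to 9 and 26 to 27 in 1-2 KO. Members up by 1.5-fold or more in 1-2 KO numbered 1 to 2, the second being reached without 1-2 KO replicate 2 or 3. For members not called with all libraries, values ran from -0.28 to 0.44 for MITF, -0.050 to 0.24 (called, without WT replicate 3) for CTSD and -0.11 to 0.16 for TFEB in 1-1 KO. In 1-2 KO they ran from -0.10 to 0.12 for TFEB and -0.19 to 0.86 (called, without 1-2 KO replicate 2) for ATP6V0C, and between the knockouts from -0.19 to 0.083 for TFEB and -0.34 (called, without 1-2 KO replicate 1) to 0.72 for ATP6V0C. With no filter on low counts ATP6V0C was called in 1-2 KO (0.57) and between the knockouts (0.44).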
